A study of Mus musculus with 20 samples.

Results

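ATF4-branch stress regulators were followed through oxygen-glucose deprivation (OGD), which takes oxygen and glucose from cultured cells together to model ischaemia. The set held 10 mouse genes, Atf4, Atf5, Atf3, Ddit3, Cebpb, Cebpg, Trib3, Chac1, Nupr1 and Sesn2. They were chosen by their known place in the ATF4 response, with earlier results on these arrays in view, including a lower level of an ATF4 gene list at 10 min. Of the 10 genes, 9 had a named probe on the array, with 12 probes together, and 7 genes with 8 probes passed the detection filter, among 15785 named genes of which 7721 passed. No probe was named Cebpg.

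The samples were 20 primary cortical cultures of Swiss albino mice, prepared from foetal cortex at gestation day 15 or 16 and labelled day 7 of culture. They fell into 5 OGD groups of 3 arrays each, held at an oxygen pressure below 50 mm Hg without a break for 10 min, 5 h, 8 h, 15 h or 24 h, and 5 controls with no agent. No genetic change is labelled in any group. Each array measured total RNA on Illumina MouseRef-8 beads, and nothing in the labels ties the replicates of a group to different dissections, so p-values rest on the spread among these samples alone, which may be technical.

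ATF4 is the transcription factor at the centre of the integrated stress response. Kinases that sense amino acid shortage, unfolded protein in the endoplasmic reticulum, haem shortage or viral RNA phosphorylate eIF2, which lowers general protein synthesis and favours translation of Atf4 mRNA. ATF4 then pairs with C/EBP family proteins on composite DNA elements, and drives genes of amino acid uptake and synthesis, tRNA charging and, through CHOP (the product of Ddit3), cell death. Because ATF4 is controlled largely at translation, its mRNA on an array is not a measure of the protein.

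The start sites of these genes are shown because the genes are named for one shared regulator. In RefSeq windows of 300 bases (build GRCm38.p6), reaching from upstream of the start into the transcript, the letters TGATGNAA, the core of the C/EBP-ATF composite element, occurred on either strand in the windows of 4 of the 10 genes. The same letters occurred in 3.97% of all 32851 windows. All 4 matches lay on the strand opposite to the gene, so they read as the reverse complement in the stretches below, which run in the direction of the gene with the match in capitals.
Atf3: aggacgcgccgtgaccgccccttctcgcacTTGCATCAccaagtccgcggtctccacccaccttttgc
Trib3: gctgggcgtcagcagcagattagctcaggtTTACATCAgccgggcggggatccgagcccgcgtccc
Chac1: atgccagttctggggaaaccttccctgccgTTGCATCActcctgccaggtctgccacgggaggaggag
Nupr1: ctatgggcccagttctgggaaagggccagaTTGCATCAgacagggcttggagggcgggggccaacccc
The Atf3 stretch is chr1:191183406-191183473 on the minus strand, and its match begins 110 bases before the start. The Trib3 stretch is chr2:152344011-152344076 on the minus strand, and its match begins at base 15 of the transcript. The Chac1 stretch is chr2:119351019-119351086 on the plus strand, with the match beginning 193 bases before the start. The Nupr1 stretch is chr7:126625543-126625610 on the minus strand, and its match begins 110 bases before the start. The letters TGACGTCA, the cAMP response element, were in the windows of 0 of the 10 genes and in 1.79% of all windows. The letters ACGTG, the core of the hypoxia response element, were in the windows of 2, Ddit3 and Nupr1, and in 19.6% of all windows. Both strands were searched each time. A match of letters is a description of the window and shows no binding.

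Across all arrays the median signal was 53.1 to 65.4 and 37 to 40.9% of probes were detected. The first principal component, with 52% of the variance, placed control replicate 2 at 9.68 and the other controls between -24.94 and -14.67. The 10 min, 15 h and 24 h arrays lay between 12.42 and 28.22 on that axis, so control replicate 2 stood on their side, against its label. Whether it is mislabelled was not tested. This array was singled out from the values given here, and leaving it out narrows the spread of the controls. Adjusted p-values without it are therefore a description. The arrays were on 3 slides. Slide 1 held the 10 min arrays and control replicate 1. Slide 2 carried 5 h and 8 h beside control replicates 4 and 5, and slide 3 carried 15 h and 24 h beside control replicates 2 and 3. Results are therefore given against all controls, with the slide as a block, and without control replicate 2, and every comparison with controls shares the same 5 control arrays. The 10 min result known when the genes were chosen used those controls. Adjusted p-values of the set against controls are therefore a description at every time.

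The mean of the branch had a low, high, low course. The 7 tested genes were lower than in controls after 10 min and were near the control level at 5 h and 8 h. At 24 h 6 of them were low again, all but Cebpb, with Atf4 and Chac1 already low at 15 h. Averaged over the 7 genes, each centred on its mean over all arrays, the log2 level was -0.79, -0.77 and -0.65 on the 10 min arrays. It was 0.75, 0.63 and 0.48 at 5 h and 0.27, 0.30 and 0.50 at 8 h. At 15 h it was -0.22, -0.18 and -0.20, and at 24 h -0.76, -0.66 and -0.75. Controls 1, 3, 4 and 5 lay at 0.74, 0.64, 0.58 and 0.71, and control replicate 2 at -0.62, beside the 24 h arrays of its own slide.

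**Figure D1:**
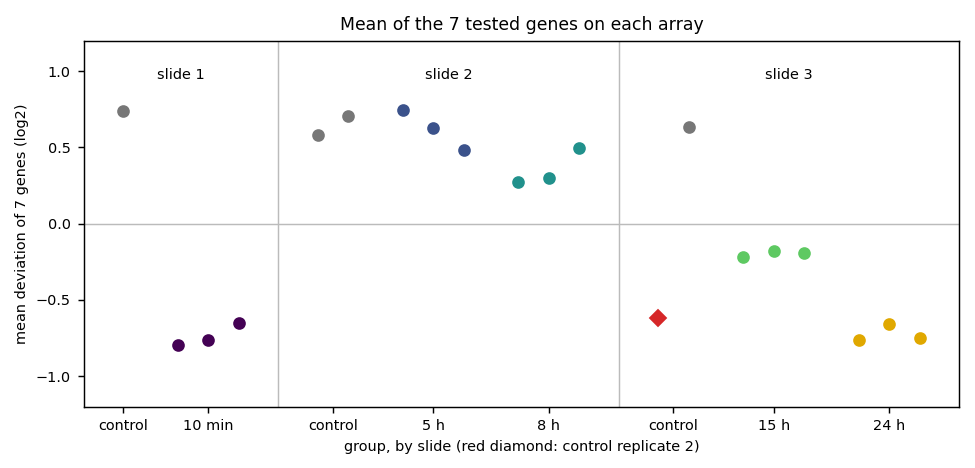
Mean log2 deviation of the 7 tested genes (vertical axis) on each of the 20 arrays, grouped by slide and by time of OGD (horizontal axis), with 1 point an array and a red diamond for control replicate 2. The 10 min and 24 h arrays lie between -0.79 and -0.65, 4 controls lie between 0.58 and 0.74, and control replicate 2 lies at -0.62.

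Atf4, the hub of the branch, had normalized log2 levels of 11.07, 9.22, 10.88, 10.89 and 10.91 in controls 1 to 5. After 10 min it had 9.43, 9.52 and 9.45, and at 5 h 11.47, 11.29 and 11.08. At 8 h it had 10.68, 10.71 and 10.94, at 15 h 9.55, 9.37 and 9.56 and at 24 h 9.00, 9.19 and 9.05. The 5 h arrays were above every other array, and the 24 h arrays were below every other array. The group means ran from 5 h through 8 h, controls, 15 h and 10 min to 24 h, and the neighbours 8 h and controls, controls and 15 h, and 15 h and 10 min overlapped. In deposited, unnormalized signal the mean was 501 ± 36.0 at 24 h (SD, n = 3), against 1802 ± 679 in controls (SD, n = 5). A second Atf4 probe was dimmer and followed the same course, with 0 of 3 arrays detected at 10 min and at 24 h, 1 of 3 at 15 h and 4 of 5 in controls.

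Atf5 encodes a leucine zipper factor that, like ATF4, is favoured at translation when eIF2 is phosphorylated. It had levels of 9.87, 8.77, 9.73, 9.96 and 9.81 in controls 1 to 5. After 10 min it had 7.95, 7.96 and 8.15, at 5 h 10.16, 10.05 and 9.94, and at 8 h 9.71, 9.97 and 10.23. At 15 h it had 9.32, 9.56 and 9.49, and at 24 h 8.28, 8.23 and 8.23. Its 15 h arrays lay above control replicate 2 and below the other 4 controls, and its 10 min and 24 h arrays lay below every array of any other group.

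Ddit3 encodes CHOP, the factor that links prolonged stress to cell death. It had levels of 7.96, 7.33, 7.94, 7.64 and 8.10 in controls 1 to 5, and 7.32, 7.23 and 7.19 after 10 min. At 5 h it had 7.66, 7.64 and 7.56, and at 8 h 7.67, 7.77 and 7.49. Its 15 h arrays had 7.33, 7.68 and 7.48, and those of 24 h had 7.30, 7.40 and 7.49. Each group overlapped its neighbour in the order of the means, so Ddit3 had a narrow range with no clear steps.

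Cebpb encodes a C/EBP protein that can pair with ATF4. It had levels of 8.75, 8.40, 9.17, 8.77 and 9.05 in controls 1 to 5, and 8.24, 8.20 and 8.38 after 10 min. At 5 h it had 8.89, 8.86 and 8.73, and at 8 h 8.66, 8.63 and 8.51. The 15 h arrays had 8.91, 8.97 and 9.05, and the 24 h arrays 8.41, 8.65 and 8.76. The 10 min arrays were below all others, and the highest group mean was at 15 h, where Atf4 and Chac1 were low.

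Trib3 encodes a pseudokinase that binds CHOP and ATF4 and damps them. It had levels of 6.21, 4.66, 5.64, 5.81 and 5.68 in controls 1 to 5, and 4.70, 4.98 and 4.97 after 10 min. At 5 h it had 6.18, 5.91 and 5.46, and at 8 h 5.19, 4.85 and 5.72. At 15 h it had 5.19, 5.20 and 4.86, and at 24 h 4.83, 4.92 and 4.50. The probe was detected on 4 of 5 controls, 3 of 3 arrays at 5 h and 1 of 3 at 8 h, and on 0 of 3 at each other time. The other 2 Trib3 probes were detected on no array.

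Chac1 encodes an enzyme that degrades glutathione. It had levels of 9.69, 8.11, 9.33, 9.57 and 9.46 in controls 1 to 5, and 7.98, 7.83 and 8.13 after 10 min. At 5 h it had 9.37, 9.36 and 9.33, and at 8 h 8.82, 8.78 and 9.19. Later it had 7.89, 7.62 and 7.94 at 15 h, and at 24 h 7.71, 7.92 and 7.66. The 10 min, 15 h and 24 h groups overlapped one another and were clear of the 8 h arrays above them.

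Nupr1 encodes a small nuclear stress protein. Its levels were 7.48, 5.01, 7.63, 7.30 and 7.80 in controls 1 to 5, and 4.68, 4.78 and 5.04 after 10 min. At 5 h it had 7.36, 7.13 and 7.12, and at 8 h 7.02, 7.26 and 7.27. At 15 h it had 6.14, 6.21 and 6.12, and at 24 h 4.97, 4.94 and 4.90. The probe was detected on 0 of 3 arrays at 10 min and at 24 h and on all arrays at 5 h, 8 h and 15 h, so its 15 h arrays formed a step between the 8 h and 24 h arrays.

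**Figure D2:**
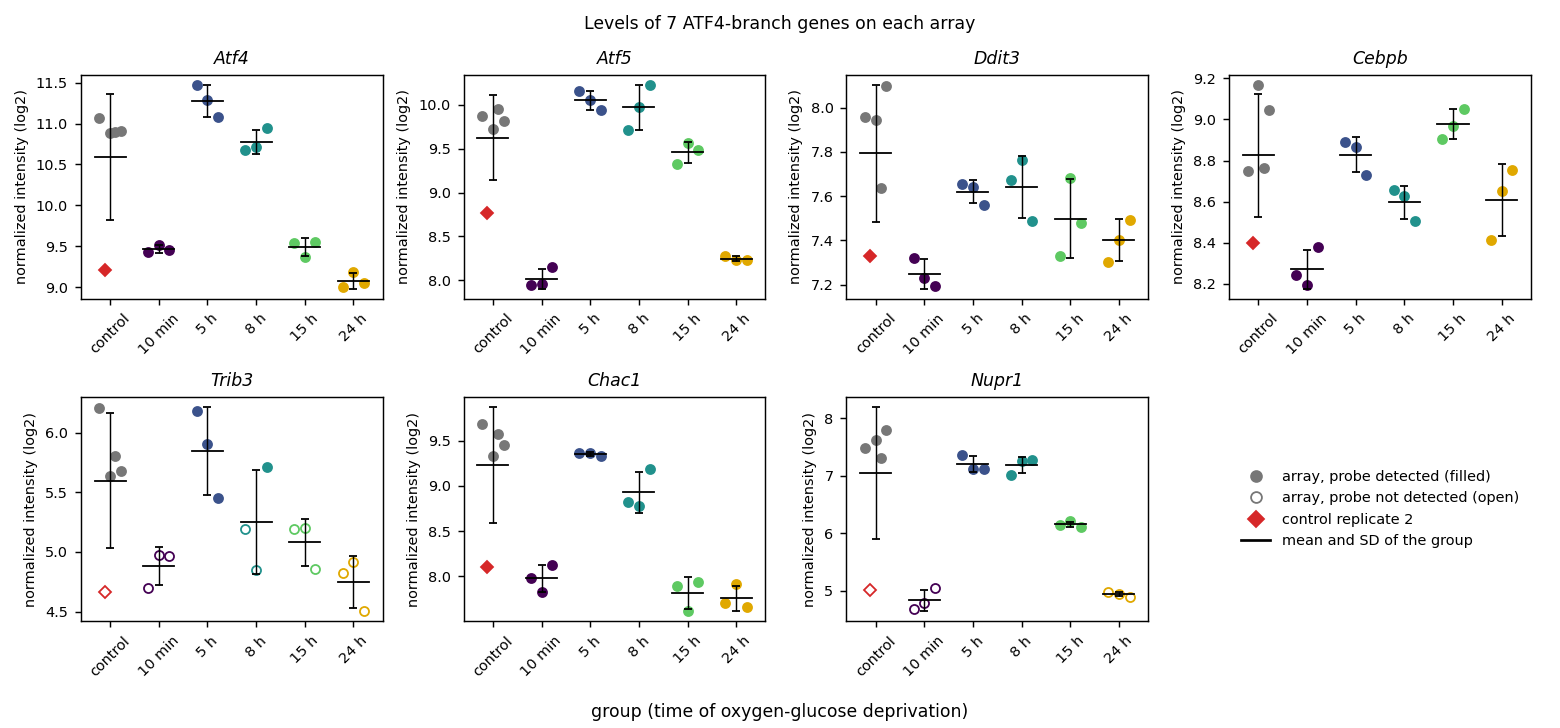
Normalized log2 intensity (vertical axis) of the 7 tested genes on each array, by group (horizontal axis), with the mean and SD of each group; open symbols are arrays on which the probe was not detected and the red diamond is control replicate 2. Atf4 lies at 9.00 to 9.19 on the 24 h arrays and at 10.88 to 11.07 on 4 of the 5 controls, with control replicate 2 at 9.22.

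The probe of Atf3, a stress-induced partner and repressor in the family, was detected on 0 of 20 arrays, with signals of 35.5 to 65.4 and a lowest detection p of 0.0414. The probe of Sesn2, a sestrin that restrains the growth kinase mTORC1, was also detected on 0 of 20 arrays, with signals of 43.7 to 68.5 and a lowest detection p of 0.0535. Whether these transcripts were below the background in every group or were missed by their probes was not tested.

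After 10 min all 7 tested genes had lower mean levels than the controls, and because the genes were chosen from that knowledge the values are a description. The difference was -2.21 for Nupr1 (SE 0.39), -1.61 for Atf5 (SE 0.19), -1.25 for Chac1 (SE 0.24) and -1.13 for Atf4 (SE 0.27) on the log2 scale. It was -0.72 for Trib3 (SE 0.25), -0.55 for Cebpb (SE 0.13) and -0.55 for Ddit3 (SE 0.13). Since Nupr1 and Trib3 were not detected at 10 min, only bounds hold there, at least 3.14-fold lower for Nupr1 and at least 1.15-fold lower for Trib3. All 7 were past the threshold of an adjusted p of 0.05 in the fit over all probes, where 9.39% of 10447 probes were called lower and 11.0% higher. With controls of the same slide, which leaves only control replicate 1, the measured difference was -2.65 for Nupr1, -1.85 for Atf5, -1.70 for Chac1 and -1.60 for Atf4. It was -1.33 for Trib3, -0.71 for Ddit3 and -0.48 for Cebpb, and calls are not given for values that rest on 1 control. For Atf5, Ddit3 and Cebpb the 10 min arrays did not overlap any control, and for the others only control replicate 2 lay among or below them. The share of all probes without such overlap is not given here.

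At 5 h no tested gene differed from the controls at an adjusted p of 0.05 (limma), against 1.68% of probes called higher and 1.15% lower, and 2281 probes at an unadjusted p under 0.05. Atf4 was highest in relation to controls, at 11.28 ± 0.20 (SD, n = 3) against 10.59 ± 0.77 (SD, n = 5), a difference of 0.68 (SE 0.27, limma adjusted p = 0.154). Without control replicate 2 that difference was 0.34 (limma adjusted p = 0.0741). The other 6 differed by -0.17 (Ddit3) to 0.43 (Atf5).

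Set against 10 min, the 5 h arrays were higher in all 7 genes, and in 6 of the 7, all but Ddit3, the difference was past the threshold, where 17.6% of probes were called higher and 18.2% lower. The 10 min arrays informed the choice of genes, so these values too are a description. The difference was 2.37 for Nupr1 (SE 0.44; at least 3.50-fold higher), 2.03 for Atf5 (SE 0.21) and 1.81 for Atf4 (SE 0.30). It was 1.37 for Chac1 (SE 0.26), 0.97 for Trib3 (SE 0.28; at least 1.37-fold higher), 0.56 for Cebpb (SE 0.14) and 0.37 for Ddit3 (SE 0.15). The 2 times lay on different slides, and with the slide as a block, which links them through the controls, Atf5 (2.02), Atf4 (1.98) and Chac1 (1.54) were past the threshold. In each of the 7 genes the arrays of the 2 times did not overlap, and the share of all probes that did so is not given here.

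At 8 h no tested gene was called against the controls, in a comparison with 0% of probes called higher, 0% called lower and 668 probes at an unadjusted p under 0.05 (limma). The differences ran from -0.35 for Trib3 to 0.34 for Atf5. Between 8 h and 5 h, on the same slide, 0 of the 7 were called by limma, against 1.23% of probes called higher and 1.07% lower and 2168 probes at an unadjusted p under 0.05. Atf4 had 10.78 ± 0.14 at 8 h against 11.28 ± 0.20 at 5 h (SD, n = 3 each), and these arrays did not overlap (difference -0.50, limma adjusted p = 0.366, and 0.011 without control replicate 2). Chac1 was also non-overlapping, with a difference of -0.42 (limma adjusted p = 0.383, and 0.0498 without control replicate 2).

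At 15 h 2 of the 7 genes fell relative to the controls, and no gene rose, in a comparison where 19.9% of probes were called lower and 18.7% higher. A count of 2 in 7 is near those shares, so the 2 are given as single genes and not as a trait of the set. Chac1 had 7.82 ± 0.17 (SD, n = 3) against 9.23 ± 0.64 in controls (SD, n = 5), a difference of -1.41 (SE 0.24, limma adjusted p = 0.000115), 2.67-fold lower. Atf4 had 9.49 ± 0.11 against 10.59 ± 0.77 in controls (SD, n = 3 and 5), a difference of -1.10 (SE 0.27, limma adjusted p = 0.00326), 2.15-fold lower. Against controls of the same slide the difference was -0.90 for Chac1 (limma adjusted p = 0.00759) and -0.56 for Atf4 (limma adjusted p = 0.152). Control replicate 2 is 1 of the 2 controls on that slide. With the slide as a block and that array left out, only control replicate 3 remained on the slide. In that fit, chosen after seeing the data, the difference was -1.51 for Chac1 and -1.39 for Atf4.

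The remaining genes at 15 h depended on the control arrays, and the adjusted p-values without control replicate 2 are a description. Nupr1 differed by -0.89 (SE 0.39, limma adjusted p = 0.0778) against all controls, by -1.40 without control replicate 2 (limma adjusted p = 2.11e-08) and by -0.17 within the slide (limma adjusted p = 0.805). Atf5 differed by -0.17 (limma adjusted p = 0.509), by -0.38 without control replicate 2 (limma adjusted p = 0.00696) and by 0.21 within the slide. Without control replicate 2, 6 of the 7 were called, all but Cebpb. Over all 10447 probes that fit called 4740, beside 2078 lower and 1951 higher with all arrays. With the slide as a block as well, which leaves only control replicate 3 on the slide, Nupr1 differed by -1.47 and Atf5 by -0.27. Cebpb had 8.98 ± 0.07 at 15 h against 8.83 ± 0.30 in controls (SD, n = 3 and 5; difference 0.15, limma adjusted p = 0.383).

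Between 15 h and 8 h the same pair passed the test. At 15 h Atf4 was lower than at 8 h by a difference of -1.29 (SE 0.30, limma adjusted p = 0.00309) and Chac1 by -1.12 (SE 0.26, limma adjusted p = 0.00314), 2 of the 7 genes, where 16.9% of probes were called lower and 16.0% higher. That count too is near the shares of all probes. Nupr1 differed by -1.03 (SE 0.44, limma adjusted p = 0.077) and Atf5 by -0.51 (SE 0.21, limma adjusted p = 0.0686), and in both the arrays of the 2 times did not overlap. Without control replicate 2 the adjusted p in limma was 3.23e-06 for Nupr1 and 0.00167 for Atf5, and 5 of the 7 genes were called, beside 3901 of 10447 probes. The 2 times lay on different slides. With the slide as a block the difference was 0.20 for Nupr1, 0.12 for Atf5, -0.44 for Atf4 (limma adjusted p = 0.55) and -0.32 for Chac1 (limma adjusted p = 0.601), so both calls were lost. With control replicate 2 left out as well it was -1.27 for Atf4 (limma adjusted p = 0.000346) and -0.93 for Chac1 (limma adjusted p = 0.00815).

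At 24 h 6 of the 7 genes fell, all but Cebpb, and no gene rose, where 14.4% of probes were called lower and 14.7% higher. Nupr1 was at least 3.04-fold lower (measured means 4.94 ± 0.04 against 7.05 ± 1.15 in controls, SD, n = 3 and 5; limma adjusted p = 0.00055), since its probe was not detected at 24 h. Atf4 had 9.08 ± 0.10 against 10.59 ± 0.77 in controls (SD, n = 3 and 5), a difference of -1.51 (SE 0.27, limma adjusted p = 0.000414), 2.85-fold lower. Chac1 had 7.76 ± 0.14 against 9.23 ± 0.64 (SD, n = 3 and 5), a difference of -1.47 (SE 0.24, limma adjusted p = 0.000153), 2.77-fold lower. Atf5 had 8.25 ± 0.03 against 9.63 ± 0.49 (SD, n = 3 and 5), a difference of -1.38 (SE 0.19, limma adjusted p = 4.51e-05), 2.60-fold lower. For Atf4, Chac1 and Atf5 no 24 h array reached any control, and for Nupr1 control replicate 2 was undetected like the 24 h arrays.

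Trib3 was at least 1.12-fold lower at 24 h (limma adjusted p = 0.0156) and Ddit3 differed by -0.39 (SE 0.13, limma adjusted p = 0.0332), while Cebpb differed by -0.22 (SE 0.13, limma adjusted p = 0.218). Against controls of the same slide 4 genes kept an adjusted p under 0.05 in limma, Atf4 (-0.97), Atf5 (-0.999), Chac1 (-0.96) and Nupr1 (-1.38). Over all 10447 probes that fit called 1446. With the slide as a block and control replicate 2 left out, all 7 were past the threshold, beside 2589 of 10447 probes. Among the 5 genes detected at 24 h the differences then ran from -1.80 for Atf4 to -0.54 for Ddit3.

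Atf5 was the 1 gene called between 24 h and 15 h, which share a slide, at 8.25 ± 0.03 against 9.46 ± 0.12 (SD, n = 3 each). The difference was -1.21 (SE 0.21, limma adjusted p = 0.00563), and 0.613% of probes were called lower and 0.431% higher. Nupr1 had a difference of -1.22 (SE 0.44, limma adjusted p = 0.178) with arrays that did not overlap, a bound of at least 1.64-fold lower. Without control replicate 2, which narrows the shared estimate of the spread, its adjusted p in limma was 9.59e-06 and that of Atf4 was 0.0381 at a difference of -0.41.

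**Figure D3:**
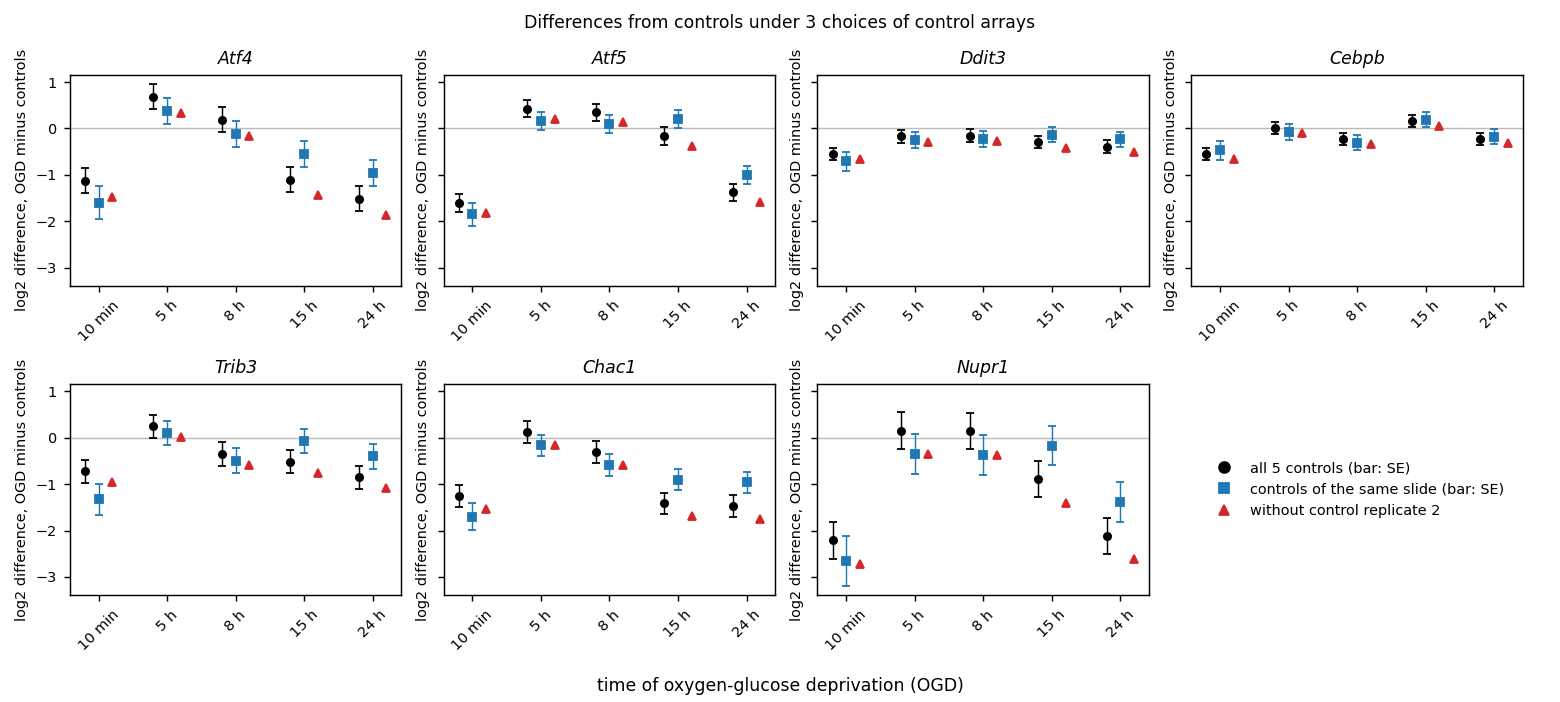
Log2 difference from controls (vertical axis) of each tested gene at each time of OGD (horizontal axis), against all 5 controls (black, bar SE), with the slide as a block (blue, bar SE) and without control replicate 2 (red). At 24 h Atf4 lies at -1.51, -0.97 and -1.86 under the 3 choices, and Cebpb at -0.22, -0.18 and -0.32.

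The genes differed in how closely they followed Atf4 over the 20 arrays, which share groups and slides, so the correlations are a description. Pearson's r with Atf4 was 0.96 for Chac1, 0.92 for Nupr1, 0.86 for Trib3, 0.85 for Atf5, 0.69 for Ddit3 and 0.41 for Cebpb. After each group's mean was removed it was 0.95, 0.95, 0.82, 0.91, 0.66 and 0.65 in the same order of genes. Control replicate 2 weighs heavily in these values within groups. The SD of Atf4 was 0.77 in controls and 0.05 to 0.20 in the OGD groups, and that of Nupr1 was 1.15 against 0.04 to 0.19. Outside the set, the 8 genes most like the mean of the 7 were Slc7a5 (0.977), Shmt2 (0.972), Acss2 (0.971), Nrp1 (0.970), Tlcd1 (0.970), Slc7a3 (0.969), Slc16a6 (0.968) and Cox6a2 (0.966). For Atf4 alone they were Tm7sf2 (0.979), Gcat (0.975) and Asns (0.974). Slc7a5 and Slc7a3 encode amino acid transporters, Shmt2 a mitochondrial serine enzyme and Asns asparagine synthetase.

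The wider ATF4 pathway was counted over lists of other genes, which were drawn up with earlier results on these arrays known. Genes named from a list were picked by the size of their called change, so their adjusted p-values are a description at every time. Over all probes 9.39% were called lower at 10 min and 11.0% higher. At 10 min, given as a description, 6 of 8 tested amino acid transporter genes were called lower and 0 higher, with a median difference of -0.62 beside -0.01 over all probes. Among them Slc7a5 differed by -1.49, Slc7a3 by -1.35 and Slc3a2, the heavy chain that pairs with SLC7A5, by -1.08. Of 10 amino acid and one-carbon enzymes 6 were called lower, with Asns at -1.24, Mthfd1l at -0.95 and Psat1 at -0.66. Of 9 tRNA synthetase and tRNA export genes 5 were called lower, with the alanyl-tRNA synthetase gene Aars at -0.82 and the threonyl-tRNA synthetase gene Tars at -0.52. Of 12 other ATF4 and CHOP targets 6 were called lower, among them Ppp1r15a at -0.90, whose product GADD34 directs the removal of phosphate from eIF2, Vldlr, a lipoprotein receptor, at -0.58 and the autophagy receptor gene Sqstm1 at -0.45. Under the slide block, which leaves only control replicate 1, the list medians at 10 min were -0.85, -0.50, -0.67 and -0.23 in that order.

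At 24 h 6 of 8 transporters fell and 0 rose, with a median of -0.82 beside -0.02 over all probes. Of all probes 14.4% were called lower at that time and 14.7% higher. Slc7a3 differed by -1.42 (limma adjusted p = 1.04e-05), Slc7a5 by -1.30 (limma adjusted p = 5.61e-05) and Slc3a2 by -0.98 (limma adjusted p = 0.00207). Of the 10 enzymes 5 fell and 2 rose, with Asns at -1.71 (limma adjusted p = 2.50e-05), the folate enzyme Mthfd2 at -1.59 (limma adjusted p = 0.000398) and Shmt2 at -1.13 (limma adjusted p = 0.000455). Of the 9 tRNA genes 6 fell, with Aars at -0.95, Nars at -0.76 and Gars at -0.64. Of the 12 other targets 7 fell, with Ppp1r15a at -1.20, Vldlr at -0.76 and Gabarapl1, an autophagy gene, at -0.32. With the slide as a block the genes called lower numbered 3, 4, 4 and 3 in these 4 lists, and without control replicate 2 they numbered 6, 5, 6 and 8. Over all probes these fits called 1446 and 4073 in that order, in either direction.

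At 15 h the amino acid lists held genes of both directions, beside 19.9% of all probes called lower and 18.7% higher. The transporter list had 4 genes that fell and 1 that rose, Slc7a11, the cystine transporter, at 7.48 against 6.34 in controls (difference 1.14, SE 0.14, limma adjusted p = 7.87e-06). Slc7a3 differed by -0.86 and the neutral amino acid transporter gene Slc1a4 by -0.84. The enzyme list had 4 that fell and 2 that rose, with Mthfd2 at -1.65 and Asns at -1.49 and with Phgdh, the first enzyme of serine synthesis, at 0.73 (limma adjusted p = 4.10e-05). Of the 9 tRNA genes 6 fell, with Aars at -0.95, Nars at -0.89 and Gars at -0.65. Of the 12 other targets 6 fell, with Ppp1r15a at -0.90 and Vldlr at -0.81, and 1 rose, Sqstm1, at 0.38 (limma adjusted p = 0.0375, and 0.11 with the slide as a block). Under the slide block the genes called lower at 15 h numbered 2, 2, 3 and 2 in the transporter, enzyme, tRNA and other target lists. Over all probes that block called 2930 at 15 h, in either direction. At 24 h Slc7a11 was lower than at 15 h, by a difference of -1.29 on one slide (limma adjusted p = 0.000316), as was Slc3a2, by -1.11 (limma adjusted p = 0.0249).

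Genes upstream of ATF4 and in parallel branches moved in both directions. Of 15 genes for eIF2, its kinases and its regulators, 6 fell and 3 rose at 24 h, with a median of -0.13. There Ppp1r15b, the constitutive eIF2 phosphatase partner, differed by -0.84 (limma adjusted p = 0.00093) and Eif2ak2, the double-stranded RNA kinase PKR, by 0.62 (limma adjusted p = 0.00604), and Eif2b4, a subunit of the exchange factor eIF2B, by -0.34 (limma adjusted p = 0.00241). Of 15 genes of the ATF6 and XBP1 branch 4 fell and 1 rose at 24 h, with the chaperone BiP gene Hspa5 at -0.44 (limma adjusted p = 0.0303), the chaperone gene Hyou1 at -0.35 (limma adjusted p = 0.039) and the disulfide isomerase gene Pdia4 at 0.73 (limma adjusted p = 0.000103). At 5 h 1 of these 15 rose, Hspa5, at 7.68 against 6.94 in controls (difference 0.74, limma adjusted p = 0.0168, and 0.168 with the slide as a block), and 1 fell, Sec61b, at -0.42 (limma adjusted p = 0.0465). Of 7 C/EBP, ATF and CREB relatives 4 fell and 2 rose at 24 h, with Fos at -1.66, Crem at -0.82 and Atf2 at -0.66. Of 9 sestrin and mTORC1 regulators 1 fell at 24 h, Trib2, at -0.47 (limma adjusted p = 0.00225), a share below the 14.4% of all probes called lower. In the fit with the slide block the genes called lower at 24 h numbered 1 for eIF2 and its regulators (1 higher), 2 for the ATF6 and XBP1 branch (1 higher), 3 for the relatives (1 higher) and 0 for the sestrin list. Over all probes that fit called 1446 at 24 h, in either direction.

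**Figure D4:**
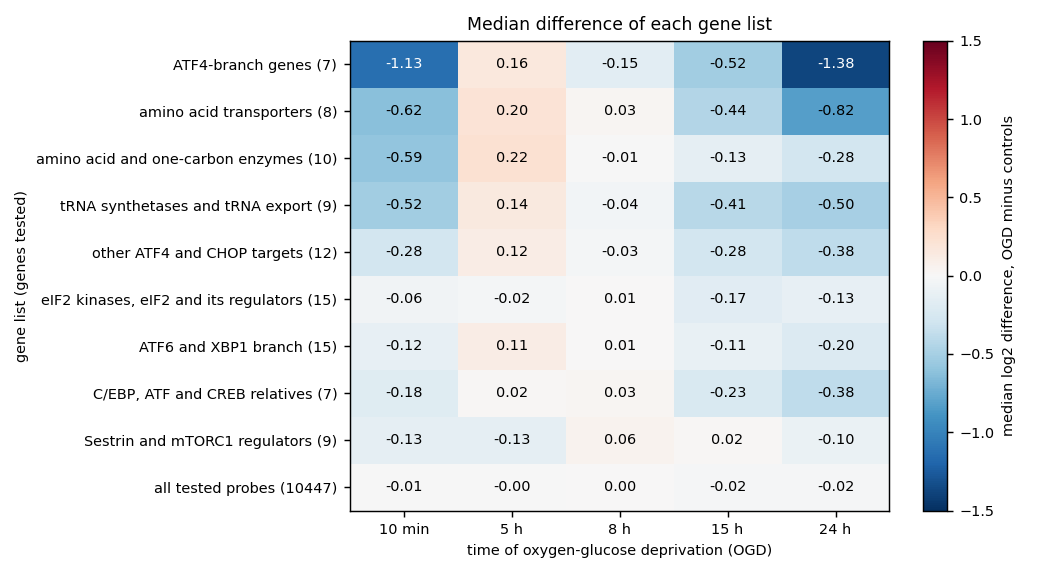
Median log2 difference from controls of each gene list (rows, with the number of genes tested) at each time of OGD (columns); blue is lower and red higher under OGD. The 7 ATF4-branch genes have medians of -1.13 at 10 min and -1.38 at 24 h, and the median over all tested probes lies between -0.02 and 0.00.

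Markers of cell types also differed between the times, with the lowest neuronal and the highest progenitor sums at 15 h, not at 10 min or 24 h. Neuronal markers were present, with 13 of 15 genes detected, but the probes of Snap25 and Nefl were detected on no array. The summed level of the neuronal list was 19610 to 21180 at 10 min, 15030 to 16470 at 15 h and 17600 to 19850 at 24 h, against 21590 to 25250 in controls. The summed level of the astrocyte list, 9 of 11 genes detected, was 29310 to 32100 at 10 min, 35580 to 38180 at 15 h and 32410 to 37110 at 24 h, against 17960 to 26560 in controls. Control replicate 2 had 26560 on the astrocyte list, above the other controls at 17960 to 24050, and 8088 on the progenitor list, above 5748 to 7061. It had 21590 on the neuronal list, below the other controls at 21840 to 25250, 335.4 on the microglial list, above 290.4 to 313.9, and 9200 on the oligodendrocyte list, below 10190 to 11910. At 5 h the astrocyte list had 17720 to 18050 and the neuronal list 24510 to 27840. The vascular and fibroblast list, 3 of 11 genes detected, had 2400 to 2732 at 10 min and 2731 to 3046 at 24 h, against 1592 to 1711 in controls, and the progenitor list, 8 of 9 detected, had 7732 to 8568 at 10 min, 10240 to 11300 at 24 h and 5748 to 8088 in controls. The microglial list, 7 of 10 detected on any array, had 360.4 to 416.3 at 10 min and 379.6 to 522.3 at 24 h, against 290.4 to 335.4 in controls, and the oligodendrocyte list, 8 of 10, had 9230 to 9680 at 10 min and 8900 to 9666 at 24 h, against 9200 to 11910 in controls. At 15 h the vascular and fibroblast list had 1900 to 2360 and the progenitor list 11940 to 12860. The microglial list had 418.6 to 441.9 at that time and the oligodendrocyte list 8967 to 9857. These sums follow the brightest genes of a list, such as Vim among the progenitor genes. Of 3 vascular and fibroblast genes tested, 2 were called higher and 1 lower at 10 min and again at 24 h. Of 8 progenitor genes tested, 3 were called higher and 0 lower at 24 h (median 0.24), beside 14.7% of all probes higher. At 15 h 5 were called higher and 0 lower (median 0.64), beside 18.7% of all probes higher. Of 13 neuronal genes tested, 4 were called lower at 10 min, 11 at 15 h and 7 at 24 h, and 0 higher. Of all probes 9.39%, 19.9% and 14.4% were called lower at these times. The microglial probes had mean signals of 41.99 to 84.19, near the median signal of the arrays. In these bulk cultures fewer cells of a type and less RNA per cell cannot be told apart, and the part of these markers in the results on the ATF4 branch was not tested.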

How the data were processed

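RNA of 20 cultures was hybridised to Illumina MouseRef-8 v1.1 arrays. The deposited average signal per probe is an intensity, and the deposited detection value is a score, which was subtracted from 1 to give a detection p; both come from BeadStudio 3.1.7 with no normalization, per the file headers. The authors' normalized tables hold a ratio to the medians of the array and of the controls, as judged from the values; they served only to pair identifiers, and 20614 of 24620 probes received a name. Every gene name rests on this pairing, whose check is partial: of 6335 identifiers with a gene number in their form, 3314 hold the number of the annotated gene. Arrays were taken from the labels, and 120 per-sample columns of other bead statistics were not used.

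Signals were background-corrected, quantile-normalized and log2-transformed with neqc (limma 3.58.1, R 4.3.3, offset 16). A probe was kept where 3 or more arrays gave it a detection p under 0.01, which left 10447 of 24613 once 7 bacterial controls were set aside. A limma model of the 6 groups gave 9 two-sided comparisons, adjusted by Benjamini-Hochberg over all kept probes, with the threshold at 0.05. Precision is limited by how many arrays there were: the median SE of a difference from controls was 0.122. A bound sets the brighter group's mean against the dimmest detected signal of the arrays on which the probe was not detected. The brightest probe stood for a gene. The fit was tested on simulated data.

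Members and lists were chosen with earlier results of these data known. The text names all members, the 3 genes of each list with the largest change among those called with arrays that do not overlap, and the genes most alike by Pearson's r. Alternatives were the slide or replicate as a block, other scalings and filters, array weights, and leaving out arrays.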

Additional observations from a re-analysis of the deposited data

Results flagged for a closer look

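Among the 5 controls, control replicate 2 lay far below the others in 4 genes, with a gap of over 0.71 of the range of the group, and chance sets about 1 in 20 such groups apart. Its log2 level was 9.22 for Atf4, 8.77 for Atf5, 8.11 for Chac1 and 5.01 for Nupr1, and the gap took 0.899, 0.805, 0.774 and 0.821 of the range in that order of genes.

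Levels differed between times of OGD, in pairs of which only 24 h and 15 h shared a slide. Between 5 h and 10 min the difference was past the threshold of the fit for Atf4 (1.81), Atf5 (2.03), Trib3 (0.97), Chac1 (1.37), Nupr1 (2.37) and Cebpb (0.56), all higher at 5 h. At 15 h Atf4 (-1.29) and Chac1 (-1.12) were lower than at 8 h, and at 24 h Atf5 (-1.21) was lower than at 15 h. With the slide as a block the calls of Nupr1, Trib3 and Cebpb between 5 h and 10 min were lost. The calls of Atf4 and Chac1 between 15 h and 8 h were lost as well. The 10 min arrays informed the choice of genes, so the values against 10 min are a description.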

How the results depend on the processing

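Of 821 values, under the alternatives, of genes called in the reported fit, 766 kept the call, 55 lost it and 0 changed direction. Many of these values left out an array of neither group compared, which hardly moves a difference. The number kept is therefore a weak measure of stability. Differences that were not called could turn with the slide as a block, among them Atf5 at 15 h against controls (0.21, against -0.17) and, between 15 h and 8 h, Nupr1 (0.20, against -1.03) and Atf5 (0.12, against -0.51). The genes called at 10 min numbered 3 of 7 in a fit of only those 2 groups, against 7. Fewer of all probes were called in that fit as well. At 15 h 1 was called with the slide as a fixed block, 4 with median scaling, 6 with array weights and 6 without control replicate 2, against 2. Among all probes the fixed block called 2930 there and the fit without control replicate 2 called 4740, against 1951 higher and 2078 lower. Array weights raised the number called among all probes at 15 h as well, while median scaling lowered it. Between 5 h and 10 min 3 were called with the slide block, against 6. Over all probes that block called 459, against 1843 higher and 1901 lower. Between 15 h and 8 h 0 were called with the slide as a fixed or a random block, 5 in the fit of the 2 groups, 6 with array weights and 5 without control replicate 2, against 2. Over all probes the fixed block called 700 there and the fit without control replicate 2 called 3901, against 1674 higher and 1761 lower. Between 24 h and 15 h 3 were called in the fit of the 2 groups, 4 with array weights and 3 without control replicate 2, against 1. Over all probes the fit without control replicate 2 called 369 there, against 45 higher and 64 lower. With array weights 3 were called at 8 h and 3 between 8 h and 5 h, and without control replicate 2 the comparison of 8 h with 5 h had 2, against 0. Array weights also called probes outside the set at 8 h, where the reported fit called 0. Among all probes the fit without control replicate 2 called 714 between 8 h and 5 h, against 129 higher and 112 lower. With both the slide block and that array left out, an alternative chosen after seeing the data as were those for the lists, 2 were called between 8 h and 5 h and 3 between 24 h and 15 h. Over all probes that fit called 1020 and 472 in the same order. Leaving out 1 array at a time gave 6 to 7 at 10 min, 0 to 0 at 5 h and at 8 h, 2 to 6 at 15 h, 4 to 7 at 24 h, 5 to 7 between 5 h and 10 min, 0 to 2 between 8 h and 5 h, 2 to 5 between 15 h and 8 h and 1 to 3 between 24 h and 15 h. Where no count over all probes is given for a fit, its number of genes is not set apart from a shift in all probes. The cause of these shifts was not tested.

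After each group's mean was removed, same-numbered arrays had correlations from -0.585 to 0.454, with medians of -0.025, 0.029 and -0.035. These values showed no steady pairing, and whether the numbers mark shared dissections was not tested. With the replicate number as a block 3 genes were called at 10 min, 0 at 5 h, 0 at 8 h, 2 at 15 h, 4 at 24 h, 6 between 5 h and 10 min, 0 between 8 h and 5 h, 2 between 15 h and 8 h and 1 between 24 h and 15 h. The replicate block also called fewer of all probes than the reported fit at 10 min, 15 h and 24 h. Signal near background limits Trib3, Nupr1, Atf3, Sesn2 and the second Atf4 probe.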
